A study of Mus musculus with 16 samples.

Results

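Neutrophils and Ly6Clo infiltrating macrophages sorted from mouse liver were compared by RNA sequencing, with 4 libraries of neutrophils and 4 libraries of Ly6Clo macrophages out of the 16 libraries of the study. They were chosen by the cell type in the labels, and each neutrophil library was paired with the Ly6Clo library of the same strain and genotype. The pairs were BALB/c Ift88Orpk, BALB/c wild type, C57BL/6 Ift88Orpk and C57BL/6 wild type, and values per library are given in that order throughout. Mice were 4 weeks old. Each library held RNA pooled in equal amounts from 6 to 8 animals, with as many males as females, so a library is the average of a pool, and libraries of the same strain and genotype may share animals. Ift88Orpk is the Oak Ridge polycystic kidney allele of Ift88, an intraflagellar transport gene needed to build cilia, and mice that carry it develop cystic and fibrotic disease of kidney and bile ducts. The sources used here do not give the stains and gates of either population. In the 8 libraries 10170795 to 26093556 reads fell in genes, and 18409 to 21962 genes had at least 1 count.

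Neutrophils are short-lived granulocytes that leave the bone marrow with preformed granules of antimicrobial proteins and proteases, move along chemokine, complement and lipid gradients, and live largely on glycolysis. Ly6Clo cells of the monocyte lineage carry little of the surface antigen Ly6C, patrol vessels or settle in tissue, and in liver are known for clearing debris and resolving scar. Both populations come from a shared myeloid progenitor. The comparison therefore addresses which programmes part these myeloid cell types within liver.

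Levels are in CPM, the count of a gene relative to all gene counts of its library, scaled with trimmed-mean (TMM) factors. They are not divided by transcript length, so levels are compared between libraries and not between genes. The targeted gene came first as a check of the genotype labels. Ift88 (ENSMUSG00000040040, chromosome 14, 57424062 to 57517936; coordinates throughout are from GENCODE on GRCm38) had 7.97, 1.93, 6.57 and 2.53 CPM in neutrophils, against 4.201, 2.999, 3.77 and 3.59 CPM in Ly6Clo macrophages. The values of the 2 populations overlapped and did not pass the test (log2 fold change 0.17 ± 0.44, adjusted p = 0.768). In both populations the Ift88Orpk libraries were above the wild type libraries, and a count over the whole gene cannot tell the Orpk transcript from the intact one.

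The markers given for the populations matched the labels. Ly6g (ENSMUSG00000022582, chromosome 15, 75155240 to 75159126), the neutrophil surface antigen that defines the lineage in mice, had 124, 104, 115 and 54.5 CPM in neutrophils, against 6.99, 9.24, 2.19 and 1.42 CPM in Ly6Clo macrophages. Csf3r (ENSMUSG00000028859, chromosome 4, 126024550 to 126044440), the receptor for granulocyte colony-stimulating factor, had 10383, 8145, 4619 and 6237 CPM in neutrophils, against 179, 234, 208 and 153 CPM in Ly6Clo macrophages. In each of these 2 genes every neutrophil library stood above every Ly6Clo library. H2-Ab1 (ENSMUSG00000073421, chromosome 17, 34257689 to 34269419), the beta chain of the class II molecule I-A, had 119.7, 85.7, 88.97 and 60.9 CPM in neutrophils, against 2001, 2158, 1698 and 1800.3 CPM in Ly6Clo macrophages. Cd300e (ENSMUSG00000048498, chromosome 11, 115051917 to 115062177), an activating receptor of nonclassical monocytes, had 5.11, 4.23, 9.92 and 2.76 CPM in neutrophils, against 32.9, 98.7, 138 and 145 CPM in Ly6Clo macrophages. Both were lower in every neutrophil library than in any Ly6Clo library, and Cd300e was lowest among the Ly6Clo libraries in BALB/c Ift88Orpk.

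In the test over all genes 8436 of 18879 genes (44.7%) passed a Benjamini-Hochberg adjusted p of 0.05 in edgeR's quasi-likelihood test with the pair as a block. Of these, 4018 (21.3% of genes tested) were higher and 4418 (23.4%) lower in neutrophils. The median log2 fold change of all genes tested was -0.20, neutrophils over Ly6Clo macrophages, and moved by 0.10 towards neutrophils with upper-quartile scaling. Fold changes are given on the log2 scale as the fitted value ± SE, and levels as mean ± SD over 4 libraries. A "call" below means passing this threshold, and shares of a gene list are to be read against these shares of all genes. In sorted bulk RNA, fewer cells of a type and less RNA per cell cannot be told apart.

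All 15 neutrophil markers were called higher and none lower. Their summed level was 20929 to 31879 CPM in neutrophils, against 491 to 1963 CPM in Ly6Clo macrophages. Of 12 markers of Ly6Clo monocytes and macrophages, 9 were called lower in neutrophils, with Ace (log2 fold change -3.84 ± 0.302), which encodes angiotensin-converting enzyme, Spn (-3.21 ± 0.19), which encodes the sialoglycoprotein CD43, Adgre4 (-2.96 ± 0.196), an adhesion receptor of nonclassical monocytes, and Cx3cr1 (-2.46 ± 0.28), the fractalkine receptor, beside H2-Ab1 (-4.46 ± 0.23, adjusted p = 3.37e-06) and Cd300e (-4.14 ± 0.42, adjusted p = 6.36e-05). The sums of this list were closer, at 2230.3 to 3989.6 CPM in neutrophils, against 4727 to 6209.9 CPM in Ly6Clo macrophages, and Nr4a1 made up most of the sum in neutrophils. Nr4a1, a nuclear receptor needed for Ly6Clo monocytes and also an immediate early gene, had 3269.7, 2598, 1659 and 2362 CPM in neutrophils, against 779, 1023, 739 and 876 CPM in Ly6Clo macrophages. It was higher in every neutrophil library, the one marker of that list that went the other way (log2 fold change 1.502 ± 0.22, adjusted p = 0.000477).

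**Figure D1:**
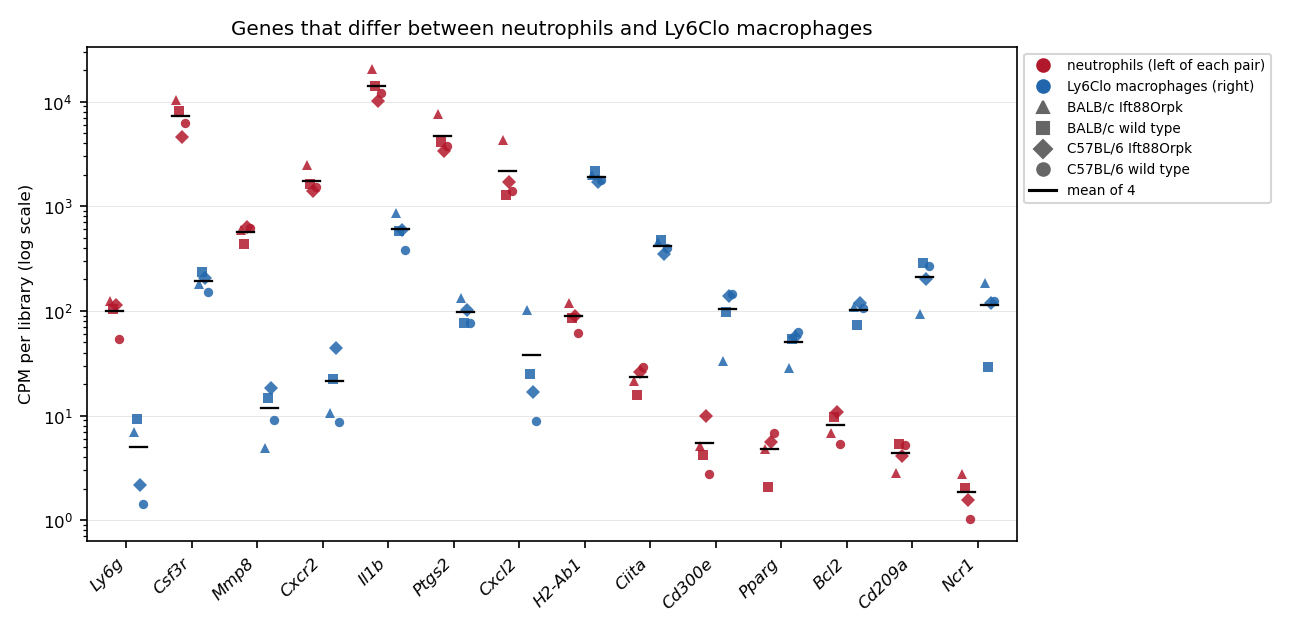
CPM per library on a log scale for 14 genes, neutrophils left and Ly6Clo macrophages right of each pair, symbols for strain and genotype and a bar for the mean of 4 libraries. The first 7 genes are higher in all 4 neutrophil libraries and the last 7 are higher in all 4 Ly6Clo libraries. Csf3r had means 7346 CPM in neutrophils and 193 CPM in Ly6Clo macrophages, and H2-Ab1 had means 88.8 CPM in neutrophils and 1914 CPM in Ly6Clo macrophages.

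Granule genes divided by the class of granule, which neutrophils fill in order as they mature in the marrow. Primary (azurophil) granule genes are transcribed in promyelocytes, secondary granule genes in myelocytes and tertiary granule genes later. Of 8 primary granule genes tested, 1 was called higher and 1 lower in neutrophils. Myeloperoxidase (Mpo) had 3.12, 4.92, 0.807 and 2.07 CPM in neutrophils, against 2.71, 6.19, 0.585 and 0 CPM in Ly6Clo macrophages, and neutrophil elastase (Elane) had 1.65, 0, 0.288 and 0.115 CPM in neutrophils, against 1.86, 4.05, 0.351 and 0 CPM in Ly6Clo macrophages. These levels overlapped between the populations and neither gene passed (log2 fold change 0.91 ± 0.896, adjusted p = 0.432 for Mpo and -1.104 ± 1.57, adjusted p = 0.59 for Elane). The member called higher was Srgn (3.07 ± 0.24, adjusted p = 1.46e-05), serglycin, the proteoglycan that packs granule proteases, and the member called lower was Ctsc (-0.92 ± 0.33, adjusted p = 0.0471), cathepsin C, which activates serine proteases. Ctsc had 171, 101, 343 and 308 CPM in neutrophils, against 579, 353, 382 and 298 CPM in Ly6Clo macrophages, so it was lower in both BALB/c pairs and nearly level in both C57BL/6 pairs. The difference of log2 fold changes between strains (BALB/c minus C57BL/6) did not pass in all 16 libraries (-1.74 ± 0.33, adjusted p = 0.25) and was called in the fit of the 12 leukocyte libraries (-1.78, adjusted p = 0.0495) and in DESeq2 (adjusted p = 0.000145). The Ctsc call itself was lost with relative log expression (RLE) and upper-quartile scaling.

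Secondary granule genes were higher: 10 of 12 were called higher and none lower, with a list median of 3.02 on the log2 scale. Mmp8 (neutrophil collagenase) had 591, 435, 631 and 625 CPM in neutrophils, against 4.93, 14.8, 18.3 and 9.15 CPM in Ly6Clo macrophages. Every neutrophil library stood above every Ly6Clo library, and the log2 fold change was 5.72 ± 0.37, adjusted p = 5.72e-06. Haptoglobin (Hp, 3.64 ± 0.24), olfactomedin 4 (Olfm4, 4.37 ± 0.398), annexin A1 (Anxa1, 2.83 ± 0.22), the surface protein CD177 (Cd177, 3.56 ± 0.39) and lipocalin 2 (Lcn2, 3.799 ± 0.48), which binds bacterial siderophores, were also called higher. Lactoferrin (Ltf), the iron-binding protein of these granules, had 650.0, 1004, 332 and 681 CPM in neutrophils, against 163, 433, 39.5 and 43.5 CPM in Ly6Clo macrophages. The BALB/c wild type Ly6Clo library lay above the C57BL/6 Ift88Orpk neutrophil library, so the groups overlapped for Ltf although each pair was higher in neutrophils (log2 fold change 2.56 ± 0.41, adjusted p = 0.000793). Cathelicidin (Camp) had 77.9, 157, 55.7 and 99.7 CPM in neutrophils, against 32.97, 104, 7.17 and 9.76 CPM in Ly6Clo macrophages. Here the BALB/c wild type Ly6Clo library lay above 3 of the 4 neutrophil libraries, although every pair was higher in neutrophils (log2 fold change 2.02 ± 0.43, adjusted p = 0.00427). The calls of Ltf and Camp were lost in the fits of all 16 libraries and of the 12 leukocyte libraries, and that of Camp also without the block. The difference of log2 fold changes between strains (BALB/c minus C57BL/6) did not pass for Camp in all 16 libraries (-2.25 ± 1.01, adjusted p = 0.841). It was called in the fit of the 12 leukocyte libraries (-2.29, adjusted p = 0.0489).

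Tertiary granule and secretory vesicle genes were higher as well, with 8 of 10 called higher and none lower. Mmp9 (gelatinase B), which degrades basement membrane collagen, had 3099, 1848, 2400.0 and 2797 CPM in neutrophils, against 14.9, 41.7, 83.8 and 28.5 CPM in Ly6Clo macrophages. The groups were far apart in each pair, and the log2 fold change was 6.14 ± 0.49, adjusted p = 1.57e-05. Adam8 (4.37 ± 0.23), a sheddase, Mmp25 (3.85 ± 0.36), a membrane-anchored protease, and Fpr1 (4.17 ± 0.31), the receptor for bacterial formyl peptides, also rose in neutrophils, and the integrin alpha M chain Itgam rose by less (1.46 ± 0.16; means 208 CPM in neutrophils and 74.9 CPM in Ly6Clo macrophages).

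All 14 genes of the calgranulins, stefins and other cytosolic neutrophil proteins were called higher, with a median of 4.77. S100a8, a subunit of the zinc- and calcium-binding protein calprotectin, had 5004, 2577, 5209.7 and 3369 CPM in neutrophils, against 114, 268, 199.7 and 69.02 CPM in Ly6Clo macrophages. S100a9, its partner, had 3746, 1839, 4454 and 2043 CPM in neutrophils, against 60.7, 169, 153 and 49.9 CPM in Ly6Clo macrophages. Padi4, the deiminase that citrullinates histones when neutrophils release chromatin, had 226, 205, 251 and 323 CPM in neutrophils, against 2.59, 8.24, 9.62 and 3.89 CPM in Ly6Clo macrophages. None of the 3 genes overlapped between groups, and the log2 fold change was 4.78 ± 0.42 for S100a8, 4.92 ± 0.41 for S100a9 and 5.505 ± 0.38, adjusted p = 7.88e-06 for Padi4. Lrg1 (5.35 ± 0.45) and S100a6 (2.45 ± 0.19) were also called. Stefin A genes (Stfa1, Stfa2, Stfa2l1, Stfa3 and BC100530) are near-copies, and how reads were shared among them is uncertain.

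Promoters of 3 secondary granule genes are shown because this list moved as a group. The letters TTGCNNAA, the core of the binding motif of C/EBP factors, were searched on both strands in the 250 bases before each gene start (RefSeq, GRCm38.p6). They were found for 5 of the 11 genes of the list with a promoter in the table, and for 10.8% of all 27025 genes. This motif and the 2 further on were chosen after the values were seen, and a match is a description of letters, not a binding site. Capitals mark the match on either strand, read 5′ to 3′ along the gene, and each window holds 110 bases.
Ltf (chr9:111019182-111019291, plus strand): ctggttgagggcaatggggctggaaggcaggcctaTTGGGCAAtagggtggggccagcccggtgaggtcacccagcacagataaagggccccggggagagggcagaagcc
Lcn2 (chr2:32387861-32387970, minus strand): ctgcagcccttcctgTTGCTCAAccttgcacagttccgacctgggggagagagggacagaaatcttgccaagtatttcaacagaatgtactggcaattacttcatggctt
Mmp8 (chr9:7558319-7558428, plus strand): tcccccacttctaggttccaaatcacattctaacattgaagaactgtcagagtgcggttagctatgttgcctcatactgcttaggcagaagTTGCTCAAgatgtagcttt

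The transcription factors of granulocytes were called in all 13 cases, 10 higher and 3 lower. Mxd1, an antagonist of Myc that accompanies terminal differentiation, had 8572, 4852, 3854 and 4538 CPM in neutrophils, against 269, 164, 193 and 114 CPM in Ly6Clo macrophages. Cebpd, a C/EBP factor of late granulocyte differentiation, had 388, 305, 236 and 262 CPM in neutrophils, against 24.2, 30.5, 24.5 and 16.4 CPM in Ly6Clo macrophages. Both were at least several-fold higher in each pair (log2 fold change 4.88 ± 0.27, adjusted p = 3.64e-06 for Mxd1 and 3.64 ± 0.21, adjusted p = 3.96e-06 for Cebpd). Junb (3.16 ± 0.23), Cebpb (2.32 ± 0.23), which drives emergency granulopoiesis, Rfx2 (2.27 ± 0.24) and Max (1.804 ± 0.19), the partner of Myc and Mxd1, rose too. The 3 members called lower were Cebpa (-1.04 ± 0.26), Runx1 (-0.75 ± 0.196) and Gfi1, known from earlier progenitors. They are a share (23.1%) near the 23.4% of all genes tested. Gfi1, a repressor that directs progenitors to granulocytes, had 1.65, 4.603, 0.923 and 1.61 CPM in neutrophils, against 9.82, 4.24, 7.197 and 8.798 CPM in Ly6Clo macrophages. The groups overlapped in the BALB/c wild type pair, and the Gfi1 call (log2 fold change -1.97 ± 0.56, adjusted p = 0.0171) was lost when the BALB/c Ift88Orpk, C57BL/6 Ift88Orpk or C57BL/6 wild type pair was left out, and in the fit of all 16 libraries.

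Receptors that guide neutrophils were higher, with 12 of 15 called higher and none lower. Cxcr2, the main receptor for the chemokines CXCL1 and CXCL2, had 2452, 1624, 1402 and 1537 CPM in neutrophils, against 10.7, 22.4, 44.3 and 8.75 CPM in Ly6Clo macrophages. Its neighbour Cxcr1 had 18.01, 5.73, 14.1 and 11.03 CPM in neutrophils, against 0, 0, 0.0293 and 0 CPM in Ly6Clo macrophages, a sum of 656 counts in neutrophils and 1 count in Ly6Clo macrophages (ratio 1160, exact binomial 95% interval 208 to 46000, for counting error only). Ccr1, a receptor for CCL3 and related chemokines, had 1652, 1116, 965 and 1009.9 CPM in neutrophils, against 84.9, 43.1, 52.4 and 35.9 CPM in Ly6Clo macrophages. The neutrophil libraries stood above the Ly6Clo libraries in every pair for all 3 genes, with log2 fold changes of 6.62 ± 0.51 for Cxcr2 and 4.497 ± 0.21 for Ccr1. C5ar1, the receptor for the complement fragment C5a, had 1130.4, 602, 655 and 714 CPM in neutrophils, against 56.8, 42.6, 54.4 and 24.4 CPM in Ly6Clo macrophages (log2 fold change 4.14 ± 0.26, adjusted p = 4.78e-06). The platelet-activating factor receptor (Ptafr, 3.13 ± 0.22) also rose in neutrophils.

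Receptors of monocytes, dendritic cells and NK cells went the other way, with 7 of 12 called lower in neutrophils and 1 higher. S1pr5, a sphingosine phosphate receptor of patrolling monocytes and NK cells (-4.32 ± 0.28, adjusted p = 6.13e-06), the oxysterol receptor Gpr183 (-1.82 ± 0.19), Cx3cr1 (-2.46 ± 0.28), Ccr6 (-3.66 ± 0.72) and Ccr7 (-2.097 ± 0.43), which directs cells to lymph nodes, were lower. Ccrl2, an atypical receptor that presents chemerin without signalling, was the exception, at 5834, 3646, 873 and 1057 CPM in neutrophils and 392, 247, 103 and 115 CPM in Ly6Clo macrophages (log2 fold change 3.51 ± 0.24, adjusted p = 7.6e-06).

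Of 8 colony-stimulating factor receptors, 4 were called higher and 2 lower. The 2 called lower are a share (25.0%) near the 23.4% of all genes tested. Csf3r rose by 5.201 ± 0.31 on the log2 scale (adjusted p = 4.17e-06), and the shared beta chain Csf2rb of the receptors for GM-CSF, interleukin 3 and interleukin 5 by 1.91 ± 0.21. Flt3, the receptor that sustains dendritic cells, was lower in neutrophils (-4.62 ± 0.31, adjusted p = 6.31e-06). Csf1r, the receptor for macrophage colony-stimulating factor, had 895, 761, 745 and 929 CPM in neutrophils, against 1343, 1337, 1349.6 and 1192 CPM in Ly6Clo macrophages. Every neutrophil library lay below every Ly6Clo library, yet the step was small (log2 fold change -0.65 ± 0.19, adjusted p = 0.0171), and the call was lost with upper-quartile scaling, without the BALB/c wild type pair and without the C57BL/6 Ift88Orpk pair.

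**Figure D2:**
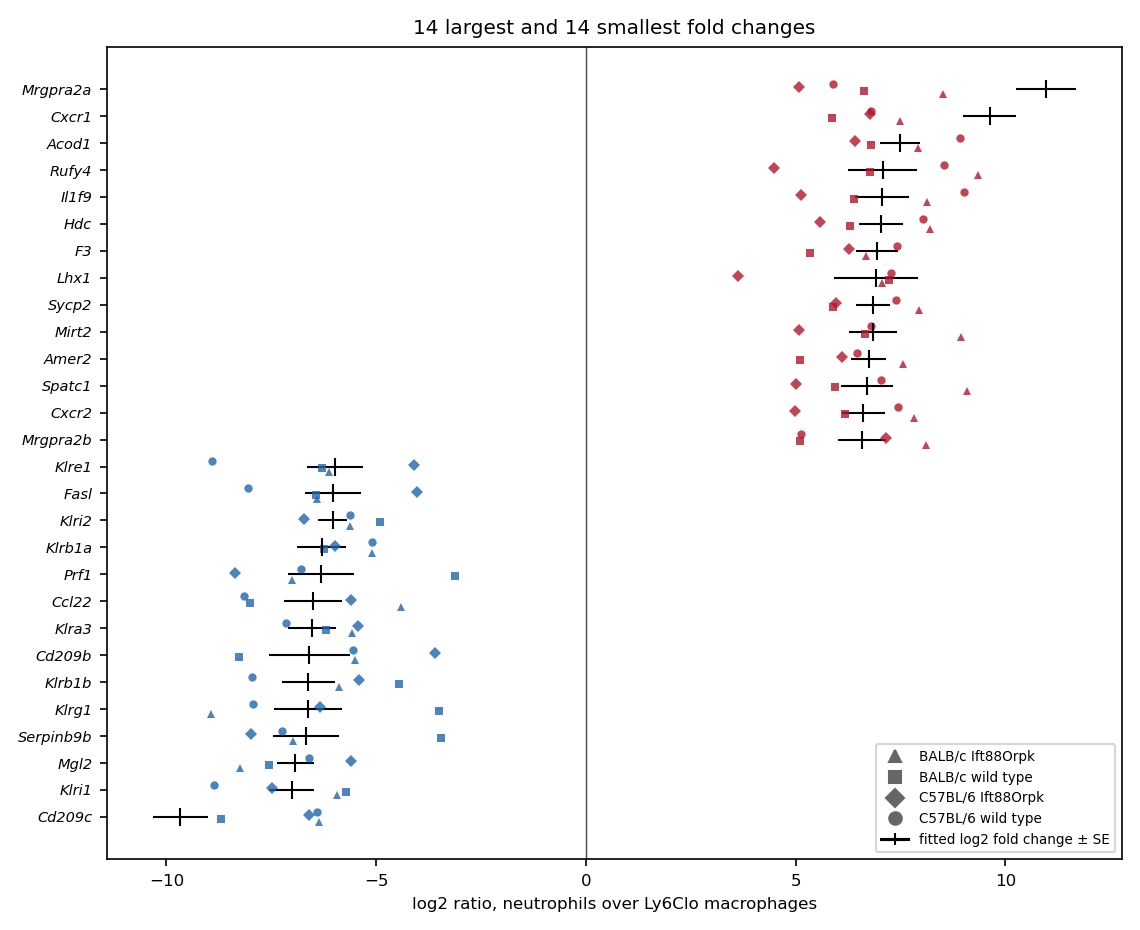
Log2 ratios of the 14 largest and 14 smallest fold changes named by the rule, one symbol per pair of libraries (0.1 CPM added to each) and the fitted log2 fold change ± SE in black. The naming rule admitted only genes with all 4 pairs on the same side of 0. The fitted value of Mrgpra2a, 10.96, lies beyond its pairs because the Ly6Clo libraries hold 0 counts.

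The largest rises beyond these receptors were genes of inflammation and several whose role in neutrophils is little known. Mrgpra2a, a Mas-related receptor, had 709 counts in the 4 neutrophil libraries and 0 in the 4 Ly6Clo libraries, at least 419-fold higher against a floor of 3 counts over the Ly6Clo group. Mrgpra2a and Mrgpra2b (55.5 ± 48.5 CPM in neutrophils and 0.551 ± 0.431 CPM in Ly6Clo macrophages) are close copies, and reads may be split between them. Acod1, the enzyme that makes itaconate, had 5738, 999, 1918 and 1684 CPM in neutrophils, against 23.4, 8.85, 22.2 and 3.39 CPM in Ly6Clo macrophages. Hdc, histidine decarboxylase, which makes histamine, had 7281, 3389.8, 3008 and 3505 CPM in neutrophils, against 24.6, 43.3, 62.3 and 13.1 CPM in Ly6Clo macrophages. Both were higher in every neutrophil library than in any Ly6Clo library, and among neutrophils the level was highest in BALB/c Ift88Orpk, with log2 fold changes of 7.497 ± 0.47, adjusted p = 5.14e-06 for Acod1 and 7.04 ± 0.53, adjusted p = 1.19e-05 for Hdc.

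Il1f9, which encodes interleukin 36 gamma, rose by 7.06 ± 0.64 on the log2 scale (472 ± 237 CPM in neutrophils and 4.26 ± 3.48 CPM in Ly6Clo macrophages), and F3, tissue factor, the trigger of coagulation, by 6.95 ± 0.4996 (22.2 ± 9.37 CPM in neutrophils and 0.171 ± 0.115 CPM in Ly6Clo macrophages). Rufy4, a protein linked to autophagy, rose by 7.07 ± 0.82 (62.02 ± 36.96 CPM in neutrophils and 0.601 ± 0.936 CPM in Ly6Clo macrophages). Sycp2, a component of the synaptonemal complex of meiosis, rose by 6.85 ± 0.41 (161 ± 101 CPM in neutrophils and 1.27 ± 0.493 CPM in Ly6Clo macrophages), the homeobox gene Lhx1 by 6.91 ± 1.0005 (12.4 ± 4.198 CPM in neutrophils and 0.102 ± 0.205 CPM in Ly6Clo macrophages) and Amer2, a regulator of Wnt signalling, by 6.74 ± 0.42 (31.8 ± 17.7 CPM in neutrophils and 0.265 ± 0.0725 CPM in Ly6Clo macrophages). The long noncoding RNA Mirt2 (92.3 ± 39.4 CPM in neutrophils and 0.7802 ± 0.565 CPM in Ly6Clo macrophages) and Spatc1 (79.3 ± 43.1 CPM in neutrophils and 0.7198 ± 0.5504 CPM in Ly6Clo macrophages), known from the testis, adjoin on chromosome 15, and a transcript annotated as Mirt2 overlaps Spatc1. How their reads were divided is uncertain.

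Interleukin 1 genes were higher in neutrophils, with 9 of 16 called higher and 1 lower. Il1b, the secreted cytokine, had 20276, 14012, 10083 and 12083 CPM in neutrophils, against 869.8, 586, 589.6 and 381 CPM in Ly6Clo macrophages. Il1r2, the decoy receptor that binds it without signalling, had 3372, 1777, 1512 and 1561 CPM in neutrophils, against 44.8, 42.5, 46.4 and 40.05 CPM in Ly6Clo macrophages. The groups were apart in every pair for both the cytokine and its decoy (log2 fold change 4.55 ± 0.28, adjusted p = 4.88e-06 for Il1b and 5.48 ± 0.27, adjusted p = 3.37e-06 for Il1r2). The receptor antagonist Il1rn (4.795 ± 0.301), the accessory chain Il1rap (4.19 ± 0.21), the inflammasome sensor Nlrp3 (3.79 ± 0.24) and Il1a (3.35 ± 0.37) also rose. Il1rl1, the receptor of interleukin 33, was the member called lower (-0.95 ± 0.34, adjusted p = 0.0472; means 7.002 CPM in neutrophils and 13.8 CPM in Ly6Clo macrophages), a call lost with RLE and upper-quartile scaling. Caspase 1 and gasdermin D, which release the mature cytokine, did not pass (-0.303 ± 0.25, adjusted p = 0.353 for Casp1 and 0.35 ± 0.17, adjusted p = 0.112 for Gsdmd).

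Inflammatory cytokines and enzymes included 8 of 15 called higher and none lower. Ptgs2, cyclooxygenase 2, had 7621, 4124, 3387 and 3761 CPM in neutrophils, against 133, 76.6, 101 and 77.4 CPM in Ly6Clo macrophages. It was higher in each neutrophil library (log2 fold change 5.56 ± 0.26, adjusted p = 3.37e-06). Oncostatin M (Osm, 5.06 ± 0.36), arginase 2 (Arg2, 4.8997 ± 0.39), tumour necrosis factor (Tnf, 2.55 ± 0.26), the interleukin 23 subunit Il23a (6.15 ± 0.76) and inducible nitric oxide synthase (Nos2, 5.64 ± 0.3996) rose too. Nos2 varied widely between neutrophil libraries, at 14.3, 3.59, 52.6 and 0.919 CPM, against 0.242, 0.0952, 1.08 and 0 CPM in Ly6Clo macrophages, and the groups overlapped although each pair was higher in neutrophils. Among 14 genes of eicosanoid synthesis 6 were called higher and 2 lower: Alox5 (3.77 ± 0.33) and its activating protein Alox5ap (1.76 ± 0.21), which make leukotrienes, were higher, and Hpgds, the prostaglandin D synthase, was lower (-2.62 ± 0.32, adjusted p = 0.000164).

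Of 15 chemokine ligands, 7 (46.7%) were called higher and 4 lower in neutrophils. The 4 called lower are a share (26.7%) near the 23.4% of all genes tested. Cxcl2, a neutrophil attractant, had 4331, 1282, 1687 and 1409 CPM in neutrophils, against 103, 25.04, 16.8 and 8.798 CPM in Ly6Clo macrophages. The BALB/c Ift88Orpk libraries were the highest of both populations, and each neutrophil library was above each Ly6Clo library (log2 fold change 6.25 ± 0.38, adjusted p = 4.58e-06). Its relatives Cxcl3 (6.58 ± 0.72; means 26.4 CPM in neutrophils and 0.571 CPM in Ly6Clo macrophages) and Cxcl1 (3.71 ± 0.52; means 14.02 CPM in neutrophils and 1.404 CPM in Ly6Clo macrophages) were called higher too, as was Ccl6 (2.21 ± 0.17). The 4 called lower were Ccl22 (-6.51 ± 0.696) and Ccl17 (-3.54 ± 0.46), ligands of CCR4, the lymphocyte chemokine Ccl5 (-4.897 ± 0.56) and Cxcl16 (-2.54 ± 0.23).

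The letters GGGAA and TTCC with any 1 base between them, a form of the NF-kB motif, were searched on both strands in the 250 bases before each start. A match on either strand was found for 4 of the 10 chemokine genes in the promoter table and for 0.333% of all genes. The 3 windows shown are those of the neutrophil attractants, chosen because Cxcl1, Cxcl2 and Cxcl3 were all called higher. The other gene with a match was Cxcl10, which is not shown. The windows were thus picked by direction, and a link between match and direction was not tested. Matches on the plus and minus strands overlap in each, so the capitals mark 1 run.
Cxcl1 (chr5:90891135-90891244, plus strand): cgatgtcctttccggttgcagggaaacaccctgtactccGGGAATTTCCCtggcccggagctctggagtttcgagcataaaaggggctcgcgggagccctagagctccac
Cxcl2 (chr5:90903787-90903896, plus strand): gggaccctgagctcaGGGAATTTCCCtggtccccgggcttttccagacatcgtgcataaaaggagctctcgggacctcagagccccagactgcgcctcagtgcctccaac
Cxcl3 (chr5:90785991-90786100, plus strand): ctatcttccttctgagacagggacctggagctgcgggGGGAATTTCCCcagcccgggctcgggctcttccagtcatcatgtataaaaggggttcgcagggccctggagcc

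Class II antigen presentation was lower as a whole: all 14 genes were called lower in neutrophils, with a list median of -3.96. H2-Aa, the alpha chain of I-A, had 166, 124, 110.5 and 72.03 CPM in neutrophils, against 2513, 2789.6, 2158 and 2092 CPM in Ly6Clo macrophages. H2-Eb1, the beta chain of I-E, had 94.5, 59.8, 83.6 and 57.1 CPM in neutrophils, against 1409, 1754, 2208 and 2175 CPM in Ly6Clo macrophages. Ciita, the coactivator that switches on the class II genes, had 21.5, 15.7, 26.1 and 29.4 CPM in neutrophils, against 453, 473, 349.7 and 400.2 CPM in Ly6Clo macrophages. In each of the 3 genes all neutrophil libraries were lower and the spread within a population was small beside the gap (log2 fold change -4.39 ± 0.24, adjusted p = 3.64e-06 for H2-Aa, -4.69 ± 0.27 for H2-Eb1 and -4.202 ± 0.25 for Ciita). The invariant chain Cd74 (-4.01 ± 0.23) and the peptide editor subunit H2-DMb1 (-3.69 ± 0.27) were lower too. The proteases of the pathway moved least, with cathepsin S (Ctss) at -1.52 ± 0.25 and legumain (Lgmn) at -0.83 ± 0.24.

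These genes are known to share promoter boxes that CIITA's partner proteins occupy, and 1 of them, the Y box, holds the letters CCAAT in reverse. The letters TGATTGG were searched on both strands in the 250 bases before each start. They were found for 7 of the 11 class II list genes in the promoter table and for 8.38% of all genes. The 5 windows below are examples of genes with a match. All 14 genes of the list were called lower in neutrophils, those without the letters included.
H2-Aa (chr17:34287824-34287933, minus strand): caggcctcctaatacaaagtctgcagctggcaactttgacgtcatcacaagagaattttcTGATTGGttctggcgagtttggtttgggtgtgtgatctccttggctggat
H2-Eb1 (chr17:34305757-34305866, plus strand): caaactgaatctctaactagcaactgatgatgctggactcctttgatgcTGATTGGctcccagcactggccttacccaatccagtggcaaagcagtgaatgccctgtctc
H2-Oa (chr17:34092269-34092378, plus strand): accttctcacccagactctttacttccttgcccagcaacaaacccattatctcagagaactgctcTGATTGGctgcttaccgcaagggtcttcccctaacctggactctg
H2-Ob (chr17:34238795-34238904, plus strand): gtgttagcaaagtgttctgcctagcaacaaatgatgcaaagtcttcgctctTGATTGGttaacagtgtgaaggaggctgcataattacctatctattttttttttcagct
H2-DMb1 (chr17:34153081-34153190, plus strand): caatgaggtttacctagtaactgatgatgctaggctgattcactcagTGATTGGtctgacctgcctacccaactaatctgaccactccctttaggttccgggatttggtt

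Of the transcription factors of monocytes, macrophages and dendritic cells, 11 of 20 were called lower in neutrophils and 3 higher. Pparg, a lipid-sensing nuclear receptor of macrophages, had 4.76, 2.09, 5.54 and 6.89 CPM in neutrophils, against 28.5, 53.9, 55.8 and 63.3 CPM in Ly6Clo macrophages. All neutrophil libraries were lower (log2 fold change -3.43 ± 0.33, adjusted p = 4.41e-05). Irf4 (-3.16 ± 0.35) and Zbtb46 (-2.54 ± 0.35) of dendritic cells, Klf4 (-2.07 ± 0.23), Pou2f2 (-2.38 ± 0.27), Id2 (-1.66 ± 0.18) and Irf8 (-2.01 ± 0.37) were lower. The members called higher were Nr4a1, Klf2 (1.86 ± 0.23) and Bcl6 (1.04 ± 0.25). Costimulatory ligands followed both patterns, with 5 of 11 called lower, among them Cd83 (-3.24 ± 0.23) and the slam-family protein Cd48 (-2.497 ± 0.198), and 3 higher: Cd80 (2.505 ± 0.19), Vsir (1.41 ± 0.17) and the PD-1 ligand Cd274 (1.31 ± 0.21).

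C-type lectins and scavenger receptors divided, with 6 of 16 called higher and 7 lower in neutrophils. Those called higher included the receptors of fungal and mycobacterial glycans Clec4d (5.99 ± 0.25), Clec4e (4.16 ± 0.27), Clec4n (3.04 ± 0.27) and Clec7a (2.43 ± 0.19). Cd209a, a lectin of the DC-SIGN family, had 2.86, 5.299, 4.09 and 5.28 CPM in neutrophils, against 93.2, 285, 202 and 267 CPM in Ly6Clo macrophages. The neutrophil libraries held a small and even level, and the log2 fold change was -5.53 ± 0.21, adjusted p = 2.63e-06. Mgl2 (CD301b, -6.93 ± 0.44; 0.663 ± 0.665 CPM in neutrophils and 73.4 ± 15.02 CPM in Ly6Clo macrophages), Clec10a (-4.69 ± 0.33) and Cd209b (-6.596 ± 0.97) were lower as well. Cd209c had 1 count in the neutrophil libraries together and 1744 in the Ly6Clo libraries, a level 984-fold lower (exact binomial 95% interval 176 to 38900). The Cd209 genes are related copies on chromosome 8, so single members are uncertain.

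The rest of the 14 smallest fold changes were mostly receptors and effectors of NK and cytotoxic lymphocytes. Klri1 (0.243 ± 0.249 CPM in neutrophils and 34.4 ± 8.25 CPM in Ly6Clo macrophages, log2 fold change -7.01 ± 0.53), Klri2 (-6.04 ± 0.33), Klrg1 (-6.63 ± 0.804), Klrb1a (-6.302 ± 0.59), Klrb1b (-6.62 ± 0.63), Klra3 (-6.53 ± 0.57) and Klre1 (-5.99 ± 0.67) belong to the killer cell lectin-like receptors, clustered on chromosome 6 with many near-copies. Perforin (Prf1, 2.56 ± 2.24 CPM in neutrophils and 197 ± 124 CPM in Ly6Clo macrophages, -6.31 ± 0.79), Fas ligand (Fasl, -6.04 ± 0.67) and Serpinb9b (-6.68 ± 0.78), a serpin of the granzyme inhibitor family, were lower with them. Ncr1, the NK cell receptor NKp46, had 2.77, 2.03, 1.56 and 1.03 CPM in neutrophils, against 186, 28.9, 119 and 124 CPM in Ly6Clo macrophages. It was lowest among the Ly6Clo libraries in BALB/c wild type and still above every neutrophil library (log2 fold change -5.698 ± 0.46, adjusted p = 1.62e-05).

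Markers of T and NK cells and of dendritic cells moved with these genes. The 11 T and NK cell markers summed to 26.8 to 68.5 CPM in neutrophils, against 167 to 850.4 CPM in Ly6Clo macrophages, with 6 called lower in neutrophils and Cd3d higher (2.49 ± 0.55, adjusted p = 0.00494), and no marker was at 0 in either population. Dendritic cell markers summed to 46.9 to 110.2 CPM in neutrophils, against 277 to 664 CPM in Ly6Clo macrophages, with 6 of 10 called lower and none higher. B and plasma cell markers summed to 63.05 to 307 CPM in neutrophils, against 316 to 554 CPM in Ly6Clo macrophages, and 2 of 8, Cd22 and the antibody joining chain Jchain (-5.24 ± 0.67, adjusted p = 0.000227), were called lower, a share near the 23.4% of all genes tested. What part these cells have in the lower level of class II, lectin and killer cell receptor genes in neutrophils was not tested.

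The opposite held for hepatocyte, Kupffer cell, sinusoidal endothelial and stellate cell markers. The 12 hepatocyte markers summed to 2051 to 4746 CPM in neutrophils, against 446 to 1495 CPM in Ly6Clo macrophages, with 11 called higher in neutrophils and none lower, among them albumin (Alb, 2354 ± 985 CPM in neutrophils and 768 ± 364 CPM in Ly6Clo macrophages, 1.68 ± 0.24, adjusted p = 0.000391). Kupffer cell markers summed to 1275 to 2066 CPM in neutrophils, against 386 to 507 CPM in Ly6Clo macrophages, with 6 of 10 called higher and 2 lower; Slc40a1, the iron exporter ferroportin, rose most (4.02 ± 0.24), the lectin Clec4f by 1.98 ± 0.19, and Adgre1 (F4/80) was lower (-0.87 ± 0.24). Sinusoidal endothelial markers summed to 635 to 2882 CPM in neutrophils, against 454 to 861 CPM in Ly6Clo macrophages, with 9 of 11 called higher and overlapping sums. Stellate cell and fibroblast markers had 6 of 10 called higher (58.01 to 348 CPM in neutrophils, against 30.3 to 94.4 CPM in Ly6Clo macrophages) and erythroid markers 4 of 6 (41.9 to 253 CPM in neutrophils, against 16.2 to 69.2 CPM in Ly6Clo macrophages). Cholangiocyte markers summed to 81.3 to 103 CPM in neutrophils, against 20.5 to 59.7 CPM in Ly6Clo macrophages, but 6 of 8 did not pass, and the 2 called higher are a share near the 21.3% of all genes tested. Of the eosinophil, basophil and mast cell markers only Siglecf and Ccr3 were tested; both were higher in neutrophils (3.87 ± 0.34 and 1.99 ± 0.31), while Epx, the eosinophil peroxidase, was at 0 in all 8 libraries, and Fcer1a and Prss34 were at 0 in the neutrophil libraries. The part of these cells in any other difference was not tested.

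**Figure D3:**
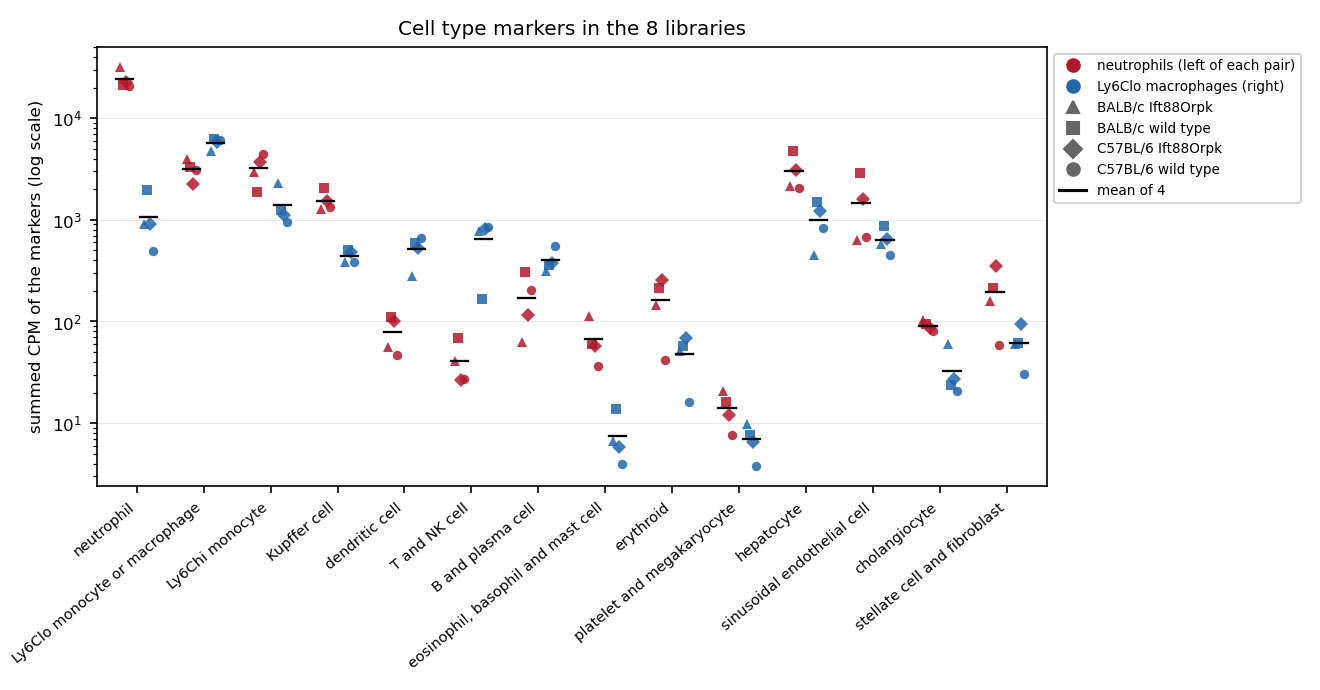
Summed CPM of 14 lists of cell type markers on a log scale, neutrophils left and Ly6Clo macrophages right of each pair, symbols for strain and genotype and a bar for the mean of 4 libraries. Neutrophil markers are apart by more than 10-fold in the means, T and NK and dendritic cell markers are higher in all 4 Ly6Clo libraries, and hepatocyte and Kupffer cell markers are higher in all 4 neutrophil libraries.

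Neutrophil energy metabolism is known to rest on glucose, and glycolysis genes were higher: 18 of 23 genes of glycolysis and the hypoxia response were called higher and none lower. Slc2a3, the glucose transporter GLUT3, had 1051, 763, 904 and 916 CPM in neutrophils, against 46.01, 41.7, 64.2 and 53.7 CPM in Ly6Clo macrophages. Neutrophil and Ly6Clo libraries were each even among themselves, and the log2 fold change was 4.15 ± 0.205, adjusted p = 3.37e-06. The lactate exporter Slc16a3 (4.33 ± 0.42), hexokinase 3 (Hk3, 2.77 ± 0.199), Slc2a1 (2.82 ± 0.21), the regulator Pfkfb4 (2.004 ± 0.22) and pyruvate kinase (Pkm, 1.72 ± 0.196) also rose. Glycogen genes included 7 of 13 called higher and 1 lower. Pygl, the phosphorylase that frees glucose from glycogen, had 1306, 882, 1025 and 1043 CPM in neutrophils, against 68.8, 105, 136 and 115 CPM in Ly6Clo macrophages (log2 fold change 3.35 ± 0.26, adjusted p = 1.29e-05). The synthase Gys1 rose by 1.35 ± 0.201, and the phosphorylase kinase subunit Phka2 was lower (-0.95 ± 0.24).

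Mitochondrial genes were lower by smaller steps in the main fit, and less clearly so in some alternatives. Of 32 nuclear genes of oxidative phosphorylation, 13 (40.6%) were called lower and none higher (median -0.56). Of 20 of the tricarboxylic acid cycle and mitochondrial biogenesis, 7 (35.0%) were called lower and none higher (median -0.43). Of all genes tested 23.4% were called lower. Uqcrc1 (-0.92 ± 0.18) of complex III and Ndufs3 (-1.16 ± 0.24) of complex I were examples, as were fumarase (Fh1, -2.12 ± 0.18, adjusted p = 2.38e-05) and the mitochondrial transcription factor Tfam (-1.76 ± 0.27). Without the BALB/c Ift88Orpk pair 8 oxidative phosphorylation genes were called lower, beside 3360 of all 18297 genes tested. Without the block 8 were also called lower, beside 3893 of 16631 genes, a share near that of all genes. Under RLE and upper-quartile scaling 5 genes of the second list were called lower and 1 higher. Of all 18879 genes 4066 and 3958 were called lower with these scalings, so the list was near the share of all genes. The mitochondrially encoded share of gene counts overlapped, at 3.15 to 11.05% in neutrophils, against 2.64 to 7.67% in Ly6Clo macrophages.

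The translation machinery was lower in neutrophils. Of 36 cytosolic ribosomal protein genes, 34 were called lower and none higher, with a median of -1.32, which kept its sign under each scaling. Rpl4 had 96.2, 122, 246 and 181 CPM in neutrophils, against 375, 353, 574 and 563 CPM in Ly6Clo macrophages. The groups did not overlap, and within each population the C57BL/6 libraries were above the BALB/c libraries (log2 fold change -1.59 ± 0.18, adjusted p = 0.000124). The members that did not pass were Rpl24 (-1.03 ± 0.697) and Rps9 (0.08 ± 0.16). Genes of ribosome biogenesis and translation were lower in 17 of 19 cases and higher in 1: nucleophosmin (Npm1, -1.897 ± 0.18), the RNA polymerase I subunit Polr1b (-2.26 ± 0.27), fibrillarin (Fbl, -2.01 ± 0.24) and Nop56 (-1.604 ± 0.201) were lower, and Eif4ebp1, which holds back cap-dependent translation, was higher (1.57 ± 0.196, adjusted p = 0.000199). Myc, which drives ribosome production, was lower (-1.56 ± 0.34; means 6.55 CPM in neutrophils and 17.3 CPM in Ly6Clo macrophages). Ribosomal protein genes have many pseudogene copies, and how reads shared with them were counted is uncertain.

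Replication genes were lower too, with 25 of 30 genes of DNA replication and mitosis called lower and none higher (median -1.55). Mcm7, a subunit of the replicative helicase, had 6.15, 11.9, 9.51 and 7.81 CPM in neutrophils, against 34.02, 37.5, 42.3 and 47.1 CPM in Ly6Clo macrophages. All neutrophil libraries were below all Ly6Clo libraries (log2 fold change -2.21 ± 0.23, adjusted p = 6.2e-05). Mcm5 (-2.47 ± 0.26), Mcm6 (-2.88 ± 0.33), the ribonucleotide reductase subunit Rrm2 (-2.1996 ± 0.26), Mcm3 (-2.25 ± 0.28) and Mcm2 (-2.82 ± 0.37) were lower, whereas the proliferation antigen Mki67 (-0.33 ± 0.19, adjusted p = 0.174; means 105 CPM in neutrophils and 130.2 CPM in Ly6Clo macrophages) and Plk1 (-0.96 ± 0.46, adjusted p = 0.114) did not pass. Of 16 cholesterol synthesis genes 11 were called lower, led by the regulator Srebf2 (-1.66 ± 0.18), and 2 higher, Mvd (1.61 ± 0.21) and Sc5d (1.49 ± 0.21).

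**Figure D4:**
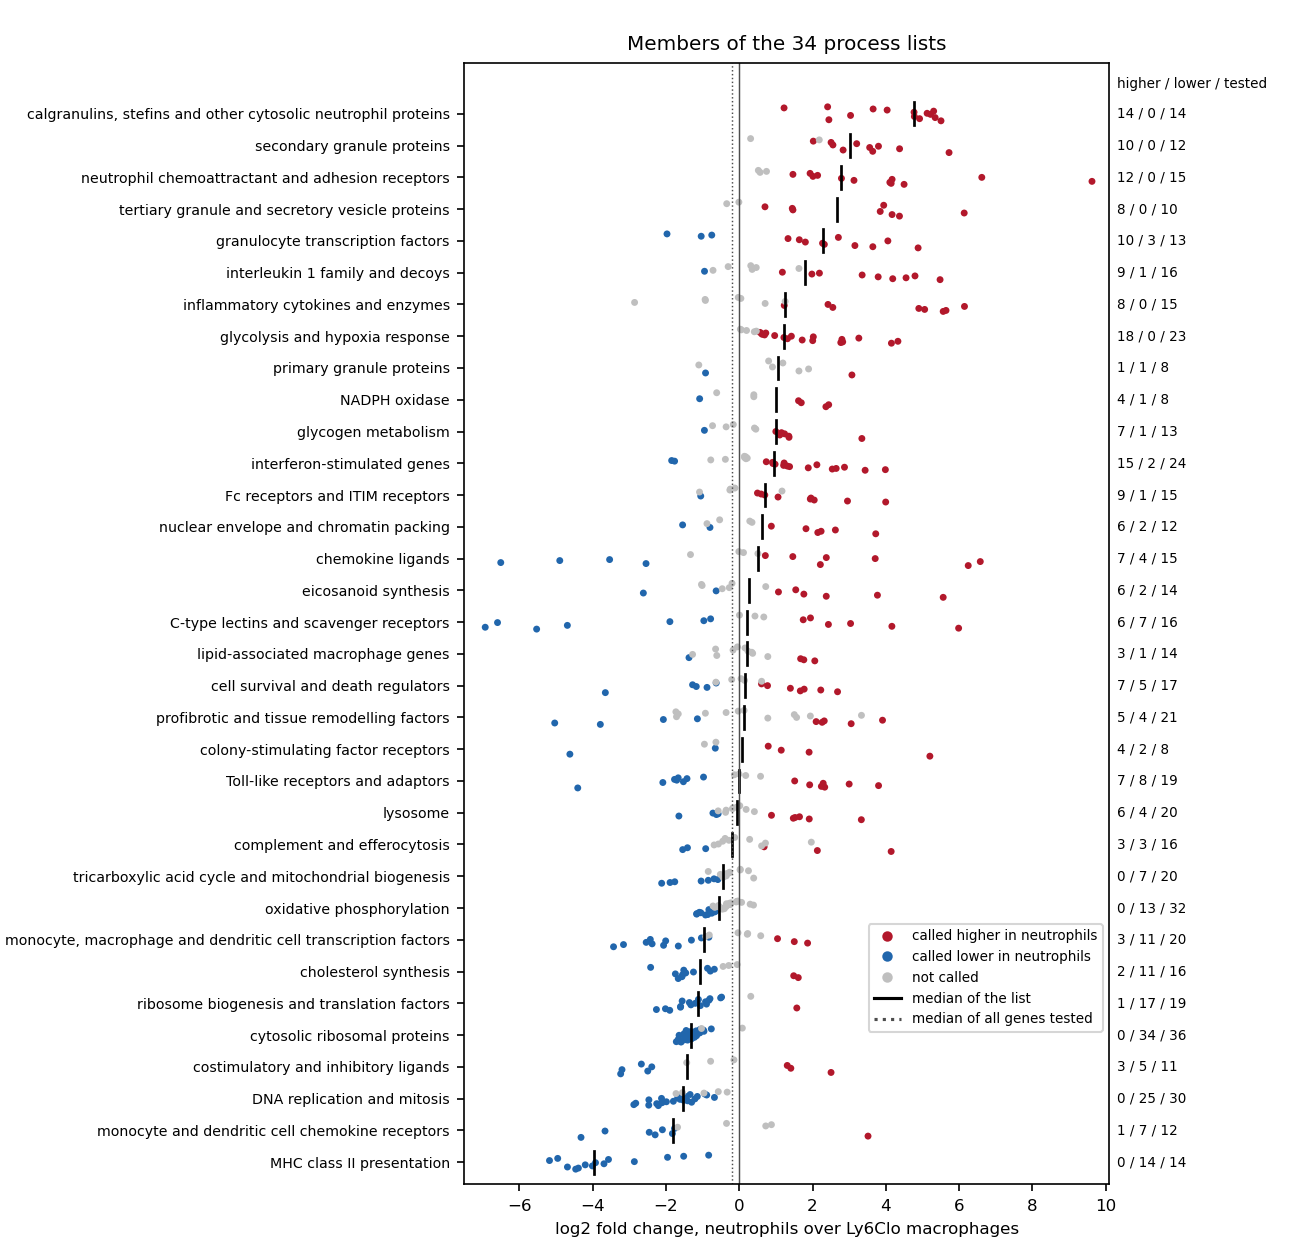
Log2 fold changes, neutrophils over Ly6Clo macrophages, of the members of 34 process lists, each dot a gene (red called higher, blue called lower, grey not called), with the list median as a bar and the median of all genes, -0.20, dotted. Lists are ordered by their median, from 4.77 for the calgranulins and stefins at the top to -3.96 for class II presentation at the bottom; numbers on the right give the members called higher, called lower and tested.

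Oxidative killing genes were mixed: of 8 NADPH oxidase genes, 4 were called higher and 1 lower. Ncf1, the organiser subunit p47phox, had 1429.5, 803, 636 and 788 CPM in neutrophils, against 195, 196, 154 and 138 CPM in Ly6Clo macrophages. Cybb, the membrane catalytic subunit gp91phox, had 366, 359, 687 and 981 CPM in neutrophils, against 991, 1073, 1333 and 1246 CPM in Ly6Clo macrophages. The organiser was higher and the catalytic subunit lower in every neutrophil library (log2 fold change 2.36 ± 0.21, adjusted p = 2.73e-05 for Ncf1 and -1.08 ± 0.24, adjusted p = 0.00456 for Cybb). Rac2 (1.69 ± 0.202) and Ncf4 (1.62 ± 0.22) rose, and the partner of Cybb, Cyba, did not pass (0.398 ± 0.16, adjusted p = 0.0707). With RLE or upper-quartile scaling 6 genes of the list were called higher.

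Pattern recognition divided within the family of Toll-like receptors: of 19 genes, 7 were called higher and 8 lower, and the list median, -0.01, changed sign with scaling. Receptors for bacterial surface molecules were among those called higher: Tlr2 (2.33 ± 0.18), Tlr4 (2.29 ± 0.25), Tlr5 (2.999 ± 0.33), Tlr6 (2.24 ± 0.18) and the endotoxin coreceptor Cd14 (3.801 ± 0.34), with the adaptor Myd88 (1.92 ± 0.19). Receptors called lower included those for nucleic acids, Tlr3 (-1.67 ± 0.45), Tlr7 (-1.52 ± 0.19) and Tlr9 (-1.77 ± 0.34), and Tlr11 (-4.41 ± 0.31), which binds profilin of parasites. Tlr13, a receptor for bacterial ribosomal RNA, was higher (1.51 ± 0.23). The adaptors Ticam1 (-1.43 ± 0.28) and Ticam2 (-1.71 ± 0.29), which lead to interferon, were lower.

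Interferon-stimulated genes were called higher in 15 of 24 cases and lower in 2. Rsad2 (viperin) had 649.8, 608, 272 and 397 CPM in neutrophils and 24.2, 29.8, 35.6 and 26.5 CPM in Ly6Clo macrophages (log2 fold change 3.99 ± 0.303, adjusted p = 1.19e-05). Oasl1 (3.43 ± 0.201), Oas3 (2.54 ± 0.22), Ifit1 (2.64 ± 0.25), Oas2 (1.88 ± 0.19) and Isg15 (2.87 ± 0.32) rose too. The members called lower were Ifi44 (-1.76 ± 0.52, adjusted p = 0.0192), at 15.2, 10.4, 5.42 and 5.63 CPM in neutrophils and 88.1, 120.2, 7.05 and 7.48 CPM in Ly6Clo macrophages, and Mx1 (-1.84 ± 0.66, adjusted p = 0.0445), at 9.87, 2.94, 35.9 and 65.9 CPM in neutrophils and 57.8, 74.98, 58.2 and 65.8 CPM in Ly6Clo macrophages. Ifi44 stood out in the BALB/c Ly6Clo libraries and Mx1 was low in the BALB/c neutrophil libraries. When either BALB/c pair was left out, 0 genes of the list were called lower.

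Among Fc receptors and inhibitory receptors with ITIM motifs, 9 of 15 were called higher and 1 lower, with Cd300lf (3.996 ± 0.204), Siglece (2.95 ± 0.197), Pirb (2.05 ± 0.18) and the IgG receptor Fcgr3 (1.94 ± 0.19) higher and the neonatal Fc receptor Fcgrt lower (-1.05 ± 0.25). Survival genes were mixed, with 7 of 17 called higher and 5 lower. Bcl2, the antiapoptotic founder of its family, had 6.84, 9.69, 10.8 and 5.399 CPM in neutrophils, against 109, 73.6, 119.7 and 107 CPM in Ly6Clo macrophages. Mcl1, on which neutrophil survival is known to depend, had 6269, 3757, 3699 and 3732 CPM in neutrophils and 826, 949, 987 and 875 CPM in Ly6Clo macrophages. The 2 genes went in opposite directions in every pair (log2 fold change -3.65 ± 0.26, adjusted p = 8.55e-06 for Bcl2 and 2.22 ± 0.25, adjusted p = 9.92e-05 for Mcl1). The NF-kB inhibitor Tnfaip3 (2.68 ± 0.24) and the proapoptotic Bcl2l11 (1.67 ± 0.16) were higher. Without the BALB/c wild type pair 2 survival genes were called lower, and without the C57BL/6 Ift88Orpk pair 3.

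Nuclear envelope genes are of interest because neutrophils fold their nuclei into lobes; 6 of 12 were called higher and 2 lower. Lmnb1, lamin B1, had 1299, 653, 751 and 714 CPM in neutrophils, against 69.2, 52.6, 71.6 and 57.1 CPM in Ly6Clo macrophages. It was higher in every neutrophil library (log2 fold change 3.72 ± 0.21, adjusted p = 3.64e-06). Lbr, the lamin B receptor that lobed nuclei need, rose by 2.23 ± 0.21, and Sun2 (2.14 ± 0.198), Syne1 (2.62 ± 0.27) and emerin (Emd, 1.82 ± 0.21) rose with it. Lamin B2 (Lmnb2, -1.55 ± 0.41) and Sun1 (-0.799 ± 0.18) were lower, and lamin A (Lmna) did not pass (-0.53 ± 0.41, adjusted p = 0.306). Genes of the list called lower numbered 4 without the C57BL/6 Ift88Orpk pair and 1 without the BALB/c Ift88Orpk pair.

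Of 21 factors that act on scar tissue, 5 were called higher and 4 lower in neutrophils, shares near those of all genes tested (21.3% and 23.4%). Plaur, the urokinase receptor (3.05 ± 0.22), Timp2 (2.26 ± 0.23), an inhibitor of matrix metalloproteinases, and Tgfbi (2.097 ± 0.24) were higher. Thrombospondin 1 (Thbs1) had 500.1, 709.5, 2347 and 2318 CPM in neutrophils, against 341, 65.03, 82.99 and 29.4 CPM in Ly6Clo macrophages. It was called higher (log2 fold change 3.91 ± 0.85, adjusted p = 0.00449), but the 2 libraries of the BALB/c Ift88Orpk pair lay close together. Its difference between strains did not pass in all 16 libraries (-3.57 ± 0.65, adjusted p = 0.228) and was called in the fit of the 12 leukocyte libraries (-3.61, adjusted p = 0.0185) and in DESeq2 (adjusted p = 1.61e-05). Pdgfb, a growth factor for stellate cells, was lower (-3.79 ± 0.202, adjusted p = 3.37e-06; 5.44 ± 1.297 CPM in neutrophils and 74.9 ± 11.3 CPM in Ly6Clo macrophages). Mmp12, macrophage elastase, had 2.86, 3.27, 0.519 and 0 CPM in neutrophils, against 37.3, 143, 17.4 and 20.02 CPM in Ly6Clo macrophages. It was lower in every neutrophil library, and highest in BALB/c wild type Ly6Clo cells (log2 fold change -5.04 ± 0.48, adjusted p = 4.1e-05). Tgfb1, the main fibrogenic cytokine, did not pass (-0.03 ± 0.18, adjusted p = 0.909; 224 ± 42.9 CPM in neutrophils and 226 ± 25.7 CPM in Ly6Clo macrophages).

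The antigen that names the Ly6Clo population is encoded by Ly6c1 and Ly6c2. Ly6c2 (ENSMUSG00000022584, chromosome 15, 75108158 to 75111970) had 30.3, 16.9, 160.3 and 224 CPM in neutrophils, against 15.96, 3.904, 14.1 and 10.2 CPM in Ly6Clo macrophages. In neutrophils both C57BL/6 libraries were higher than both BALB/c libraries, and every neutrophil library was above the Ly6Clo library of its pair (log2 fold change 2.78 ± 0.51, adjusted p = 0.00189). Ly6c1 (ENSMUSG00000079018, chromosome 15, 75044018 to 75048830) had 17.4, 7.92, 2.77 and 2.297 CPM in neutrophils, against 6.75, 1.76, 0 and 0 CPM in Ly6Clo macrophages and overlapped between groups (log2 fold change 3.204 ± 0.896, adjusted p = 0.0158); its call was lost without the block and in the fit of all 16 libraries.

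Whether the gap between neutrophils and Ly6Clo macrophages differed between strains was tested as BALB/c minus C57BL/6 difference of log2 fold changes in all 16 libraries, and 1 of 21534 genes was called (0.00464%), with unadjusted p below 0.05 for 1322. That gene was Vcan (ENSMUSG00000021614, chromosome 13, 89655312 to 89742509), the proteoglycan versican, a marker of Ly6Chi monocytes. Vcan had 9.09, 0.803, 197 and 118 CPM in neutrophils, against 32.4, 0.857, 1.901 and 0.101 CPM in Ly6Clo macrophages. In C57BL/6 neutrophils it was far above the paired Ly6Clo cells, and in BALB/c it was not (difference -8.86 ± 0.44, adjusted p = 0.000984). Vcan was no longer called when the C57BL/6 wild type, C57BL/6 Ift88Orpk or BALB/c wild type neutrophil library was left out, or without the strain by genotype term. The comparison over both strains did not pass for Vcan (log2 fold change 3.77 ± 2.21, adjusted p = 0.189).

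Other Ly6Chi monocyte markers had the same order without passing. F13a1 (factor XIII subunit A) had 25.3, 6.96, 210.2 and 344 CPM in neutrophils, against 59.3, 58.3, 14.1 and 9.35 CPM in Ly6Clo macrophages. Fibronectin (Fn1) had 239, 202, 619.8 and 760.5 CPM in neutrophils, against 714, 189, 101 and 43.2 CPM in Ly6Clo macrophages. Both were higher in C57BL/6 neutrophils than in their paired Ly6Clo cells, F13a1 was lower in both BALB/c pairs, and Fn1 was lower in BALB/c Ift88Orpk alone (differences -6.68 ± 0.72, adjusted p = 0.0845 for F13a1 and -4.13 ± 0.503, adjusted p = 0.0909 for Fn1). With the BALB/c pairs alone the log2 fold change of F13a1 was -2.16, and with the C57BL/6 pairs alone it was 4.54. Both fits were added after the data were seen, and each holds only a wild type and an Ift88Orpk pair. They describe the strain difference already seen in the same libraries and are not a further test of it. The monocyte receptor Ccr2 had 135, 29.6, 392 and 417 CPM in neutrophils and 1016, 550.3, 431 and 324 CPM in Ly6Clo macrophages. Across both strains 3 of 10 Ly6Chi monocyte markers were called higher in neutrophils, among them Ifi27l2a (1.004 ± 0.18) and Ly6c2, and none lower, and the sums were 1858 to 4459 CPM in neutrophils, against 949 to 2296 CPM in Ly6Clo macrophages. With the C57BL/6 pairs alone 8 of the 10 markers were called higher, beside 3318 of all 16998 genes tested. With the BALB/c pairs alone 3 were called lower, beside 3366 of 17266 genes. Without the BALB/c Ift88Orpk pair 7 were called higher, beside 3433 of 18297 genes. The part of monocytes among the sorted neutrophils was not tested.

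**Figure D5:**
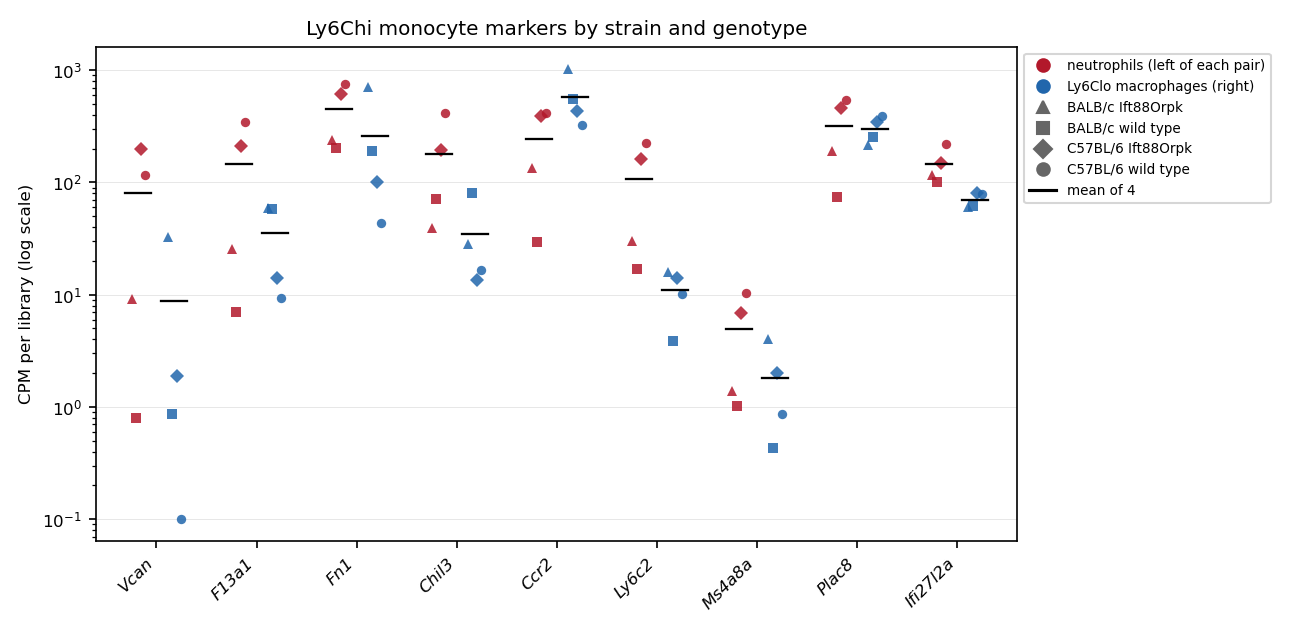
CPM per library on a log scale of 9 Ly6Chi monocyte markers, neutrophils left and Ly6Clo macrophages right of each pair, symbols for strain and genotype and a bar for the mean of 4 libraries. For Vcan and F13a1 the C57BL/6 neutrophil libraries (diamond and circle) stand above all Ly6Clo libraries and the BALB/c ones (triangle and square) do not.

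The fit of the 12 leukocyte libraries was an alternative to that of all 16 libraries, which called 1 gene. The alternative called 74 of 19418 genes tested for a difference between strains. Of these, 20 had a larger and 54 a smaller log2 fold change in BALB/c. Of the 10 Ly6Chi monocyte markers 6 were among the 54: Vcan, F13a1, Fn1, Chil3 (-4.11, adjusted p = 0.0449), Ccr2 (-3.72, adjusted p = 0.0222) and Ly6c2 (-2.54, adjusted p = 0.0449). The 6 smallest by the naming rule also held Ifi205 (difference -6.34 ± 0.68, adjusted p = 0.0144), an interferon-inducible p200 protein, and the transporter Mfsd7a (-4.64 ± 0.37, adjusted p = 0.0118). Ly6c1 was called too (-7.18 ± 0.87, adjusted p = 0.0354), with 0 CPM in both C57BL/6 Ly6Clo libraries, so the size of its difference is uncertain. Predicted genes and antigen receptor segments are not named here, and some had larger positive differences. Of the other genes, the largest positive difference belonged to the killer cell lectin-like receptor Klra17 (4.004 ± 0.45, adjusted p = 0.0185), at 135, 111, 26.9 and 34.5 CPM in neutrophils and 1.05, 2.43, 5.27 and 8.39 CPM in Ly6Clo macrophages. Klra genes are near-copies that differ between strains, so the counts of single members are uncertain. Next were Cyp4f18 (3.17 ± 0.42, adjusted p = 0.0336), a leukotriene-inactivating hydroxylase, Coro2a (3.14 ± 0.27, adjusted p = 0.0119) and Bend4 (3.05 ± 0.32, adjusted p = 0.0143), which reached 717, 235, 84.8 and 40.7 CPM in neutrophils, against 36.7, 40.4, 47.2 and 47.2 CPM in Ly6Clo macrophages.

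The same test for genotype, Ift88Orpk minus wild type, called 0 of 21534 genes (0.0%) in edgeR's quasi-likelihood test, with unadjusted p below 0.05 for 473. DESeq2 called 4 genes: the immunoglobulin genes Ighg2b, Igha and Igkc, and Fam178b, which had at most 0.455 CPM in any of the 8 libraries. These 4 genes were named after their values were seen.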

How the data were processed

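RNA of sorted liver cells was sequenced as paired-end reads of 75 nt on libraries made after ribosomal RNA reduction, from RNA with an integrity number above 7, per the labels' protocols. The authors aligned reads with STAR and counted reads per gene with HTSeq-count 0.9.1, per the labels' protocols. The submitters' processing notes also name bcl2fastq 2.18.0.12, Cufflinks 2.2.1, Cuffdiff and the build GRCm38.p4. The strand setting of the counting is not given in the sources used here, so antisense and overlapping genes are uncertain. The deposited table holds raw counts for 48795 gene identifiers, 48435 with a GENCODE symbol. Of the reads counted, 44.8 to 49.6% fell in genes in the 8 libraries, 39.1 to 45.2% in no gene, 2.23 to 3.29% were ambiguous and 7.02 to 9.33% not unique, and only reads in genes entered library sizes and tests. The top 10 genes held 24.7, 26.3, 10.8 and 12.6% of gene counts in Ly6Clo libraries, and 11.7, 18.5, 11.0 and 13.6% in neutrophils. The predicted gene Gm26917 had 168140, 162500, 11978 and 12421 CPM in Ly6Clo macrophages, against 21460, 26370, 13228 and 10494 CPM in neutrophils. Its part in the strain differences was not tested.

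Counts were tested with edgeR 4.0.16 in R 4.3.3 (filterByExpr, TMM, quasi-likelihood F test, Benjamini-Hochberg), with strain and genotype as a block of 4 pairs. Paired libraries are of the same strain and genotype, and their deviations from the group means correlated at 0.222 to 0.234, against at most 0.126 for other pairs. Differences between strains and genotypes came from interaction terms in all 16 libraries. Other libraries enter only there and in alternatives, which were RLE and upper-quartile scaling, no filter, a filter of 5 CPM in 2 libraries, DESeq2 1.42.0, no block, fits of 16 and 12 libraries, and leaving out each pair or library. P-values measure only the spread between these pooled samples. The test was tried on simulated data before use. Genes named for their size of change were the top 14 and bottom 14 by fold change of those called that reached a mean of 10 CPM in 1 population and moved alike in the 4 pairs, with predicted genes, antigen receptor segments, mitochondrial and sex-linked marker genes skipped; list members were named in order of p. List members outside that order were chosen for their known role after their values were seen, and some list members are not reported here. The members and lists were chosen with earlier results of these data known.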

Additional observations from a re-analysis of the deposited data

Results flagged for a closer look

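Of 186 groups of 4 values screened on the CPM scale, 22 held a library far from the other 3. Chance flags about 5% of groups only for independent, normally distributed values, which CPM are not, so the 22 cannot be set against that share. Where all other libraries are at 0, the remaining one is flagged whatever its level. The BALB/c Ift88Orpk neutrophil library was the high one for the summed neutrophil markers (31879 CPM), Hdc (7281 CPM), Cxcl2 (4331 CPM), Il1r2 (3372 CPM), Lmnb1 (1299 CPM), Sycp2 (313 CPM), Mrgpra2b (127 CPM), Rufy4 (117 CPM) and Cd209c (0.0866 CPM, a single count). The C57BL/6 Ift88Orpk neutrophil library was high for Klrb1b (0.807 CPM) and Cd209b (0.346 CPM), both at 0 in the other neutrophil libraries. Jchain was high in C57BL/6 wild type neutrophils (37.4 CPM).

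Among Ly6Clo libraries, BALB/c wild type was low for the summed T and NK cell markers (167 CPM) and high for Mmp12 (143 CPM) and Cd209b (30.7 CPM). BALB/c Ift88Orpk was high for the summed cholangiocyte markers (59.7 CPM) and Vcan (32.4 CPM). C57BL/6 Ift88Orpk was high for Rufy4 (1.99 CPM), Lhx1 (0.410 CPM) and Cxcr1 (0.0293 CPM). C57BL/6 wild type was low for Csf1r (1192 CPM) and F3 (0 CPM).

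The log2 fold change of neutrophils over Ly6Clo macrophages differed between strains for Vcan, by -8.86 as BALB/c minus C57BL/6 (edgeR adjusted p = 0.000984). For F13a1 the difference was -6.68, with both BALB/c pairs lower and both C57BL/6 pairs higher in neutrophils, and it did not pass (edgeR adjusted p = 0.0845).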

How the results depend on the processing

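The count of genes called between neutrophils and Ly6Clo macrophages stayed within 1.5 times of 8436 in every alternative run, between 6479 with the BALB/c pairs alone and 9782 in the fit of the 12 leukocyte libraries. Without the replicate block 7638 genes were called, 7232 of them shared with the 8436. Leaving out 1 pair gave 6793 to 7260. The number of genes that differed between strains did not hold: 1 was called, against 151 in DESeq2, 74 in the 12 leukocyte libraries, 282 in the 8 libraries with the replicate block, 0 without the strain by genotype term, and 0 to 3 when 1 library was left out. For genotype 0 were called, against 4 in DESeq2 and 50 in the 8 libraries with the replicate block. Among named genes F13a1 turned to -2.16 with the BALB/c pairs alone, an alternative added after seeing the data, as were the C57BL/6 pairs alone. The call of Camp was lost without the replicate block (1.36), as was that of Ly6c1 (1.85). Csf1r lost its call with upper-quartile scaling (-0.55). Vcan was called without a filter (3.75) and in all 16 libraries (4.25), and Vcan (5.99) and Fn1 (2.34) without the BALB/c Ift88Orpk pair. The cause of these changes was not tested. Of 96 counts of list members, 90 stayed within 1.5 times with RLE scaling and 75 with the C57BL/6 pairs alone. With 1 pool of animals per strain, genotype and population, spread between animals was not measured.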

Other observations

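Lists with smaller shares of called genes were complement and efferocytosis (3 of 16 higher, 3 lower), with C3, the central complement protein, higher (2.13 ± 0.22) and Axl, a receptor for dying cells, lower (-1.54 ± 0.32), and lipid-associated macrophage genes (3 of 14 higher, 1 lower), with Cd9 higher (2.06 ± 0.304) and Trem2 lower (-1.37 ± 0.502), a call lost with RLE and upper-quartile scaling. The shares of both lists were near or below the 21.3% called higher and 23.4% called lower of all genes tested. Lysosomal genes had 6 of 20 called higher (30%) and 4 lower (20%, near the share of all genes), with a median, -0.05, that changed sign with scaling. Gla, alpha-galactosidase, rose most (3.33 ± 0.19). Of 5 platelet and megakaryocyte markers, Itga2b was called higher (2.31 ± 0.42), a share near that of all genes. Without the BALB/c wild type pair 6 complement and efferocytosis genes and 1 lysosomal gene were called lower.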
